A study of Homo sapiens with 24 samples.

Results

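The depletion of hnRNPC was followed in 6 of the 24 libraries of the series: 2 libraries transfected with hnRNPC siRNA_2, 2 with hnRNPC siRNA_3, and 2 from the mock set labelled oct, which received the lipid reagent alone. All were made from SKOV3.ip1 cells, which descend from SKOV-3, a line of human ovarian carcinoma, at passages 28 to 40, and siRNA was used at 100 nM for 72 h. The assay was TGIRT-seq: total RNA is freed of ribosomal RNA, fragmented, and copied by the thermostable reverse transcriptase of a group II intron, an enzyme that can also copy tightly folded RNAs. The series gives the libraries as biological replicates, and replicate numbers 1 and 3 are used in each of these groups. The oct set holds no siRNA of unrelated sequence, so the entry of any siRNA and the loss of hnRNPC cannot be told apart in this contrast. It is also the mock set of hnRNPM siRNA_1, whose libraries are set beside some results. Of the 81 named genes called, as defined below, 54 kept the call with these libraries as control. In bulk RNA a smaller number of expressing cells and less RNA per cell cannot be told apart.

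hnRNPC is a nuclear protein that coats nascent transcripts by binding runs of uridines. It is known for keeping the splicing factor U2AF2 away from cryptic 3' splice sites, many of them in antisense Alu elements, and for sorting transcripts by length for export. In breast cancer lines its loss has been tied to interferon signalling through double-stranded RNA. Changes in splicing were not analysed here, and the values below are gene-level abundances.

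Values are TPM divided by a median-ratio factor per library, called scaled TPM, which is a level per length. The 16994 genes that reached 1 TPM in 2 or more of the 24 libraries were tested with limma on log2 of the scaled TPM plus 1, a scale on which changes of weakly expressed genes are understated. A gene was called when its Benjamini-Hochberg adjusted p for the mean of both siRNAs was under 0.05 and both siRNAs had the same sign. Libraries had between 13729 and 14353 genes at 1 TPM or more in those treated with hnRNPC siRNA, against 14154 and 14321 in mock. Sequencing depth is unknown. The libraries differed in their relation to GC content: across protein-coding genes the rank correlation of a library's deviation with GC content was 0.432, -0.12, 0.455 and -0.4 in the hnRNPC libraries (siRNA_2 replicates 1 and 3, then siRNA_3 replicates 1 and 3), against 0.2 and -0.513 in mock replicates 1 and 3. Replicate 1 was above replicate 3 in each group; counts from a GC-corrected fit are given with the calls.

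HNRNPC RNA fell with both siRNAs. Its level was 43.1 and 45.5 scaled TPM with siRNA_2 and 37.4 and 42.3 with siRNA_3, against 128 and 166 in mock. The groups did not overlap, and the log2 fold change was -1.77 (SE 0.10, limma adjusted p = 1.85e-07). In the hnRNPM siRNA_1 libraries, which share the mock set, HNRNPC stood at 130 and 146. HNRNPCL1, a near-identical copy of HNRNPC, was low throughout, at 0.326, 0.503, 0.504 and 0.245 scaled TPM in the hnRNPC libraries, against 1.45 and 1.13 in mock (log2 fold change -0.72, limma adjusted p = 0.0342), and reads of the copy and of HNRNPC may be confused. That call was lost in 5 of the 6 fits that left out a library. The pseudogene HNRNPCP2, another close copy, had 14.7, 16.9, 12.9 and 15.8 against 69.9 and 79.8 in mock (-2.24), and was named after its values were seen.

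Markers of the line were present. ERBB2, the receptor amplified in SKOV-3, ranged from 474.4 to 643.8 scaled TPM in the hnRNPC libraries, against 442.1 to 560.2 in mock, and KRT8, KRT18, EPCAM and PAX8 had a lowest level of 22.55 over both groups. MUC16, WT1 and CDKN2A did not exceed 0.1202. Of the markers of blood, stromal, endothelial, liver and glial cells, 9 were in the table and 0 reached the testing filter. Their summed level was between 0.24 and 0.37 scaled TPM in the hnRNPC libraries, against 0.13 and 0.32 in mock.

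**Figure D1:**
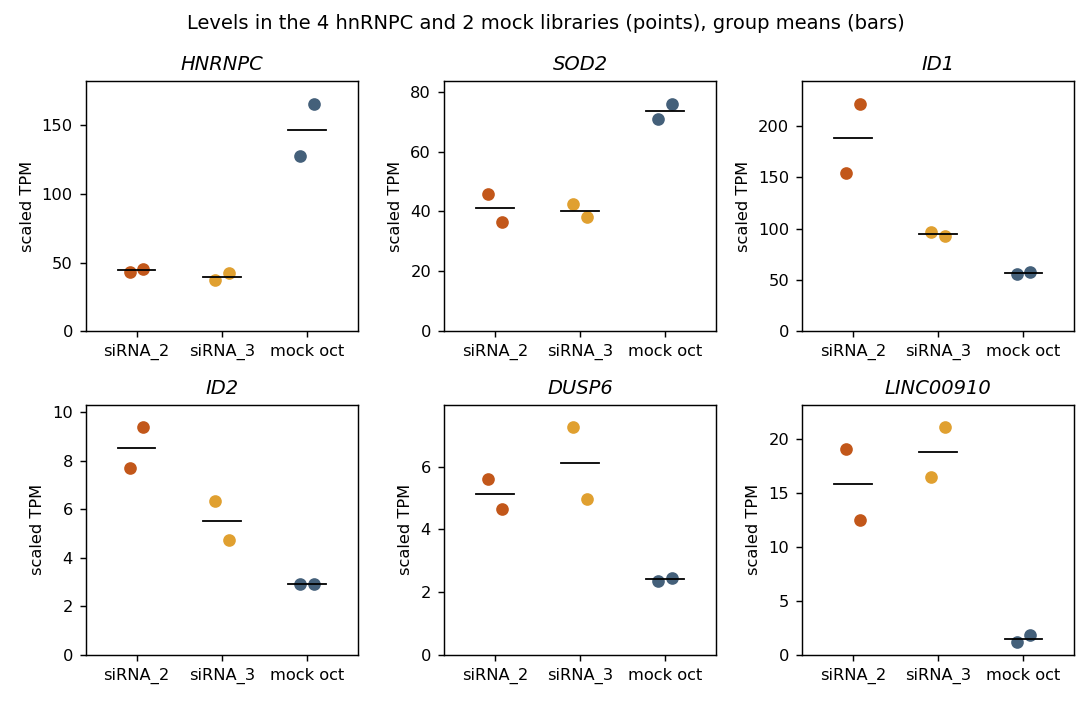
Scaled TPM of 6 genes (vertical axes, from 0) with hnRNPC siRNA_2, hnRNPC siRNA_3 and in mock oct; points are the 2 libraries of a group and bars their mean. HNRNPC lies between 37.4 and 45.5 in the 4 hnRNPC libraries and at 128 and 166 in mock, while the 4 hnRNPC values of ID1, ID2, DUSP6 and LINC00910 all lie above both mock values.

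Among 11270 protein-coding genes tested, 234 rose (2.08%) and 664 fell (5.89%). Among 1543 long non-coding genes, 26 rose (1.69%) and 20 fell (1.3%). Over all 16994 genes 359 rose (2.11%) and 737 fell (4.34%), 6.45% together, with 3551 genes at an unadjusted p under 0.05. Of all genes, 1407 (8.28%) lay above and 1936 (11.4%) below both mock libraries in all 4 hnRNPC libraries. Most changes were small: 52 of the risen and 123 of the fallen protein-coding genes moved by more than 0.5 on the log2 scale, and 3 and 3 by more than 1. The split depended on the scaling. With the values as deposited the share of called genes that rose was 22.3% of 287, against 32.8% of 1096 after scaling; the median of all genes then sat at -0.142. The shares risen were 4.04% of 198 protein-coding genes as deposited, against 26.1% of 898 after scaling, and 14.3% of 7 long non-coding genes, against 56.5% of 46; scaling to a common protein-coding total gave 66.7% of 39 long non-coding genes. Left to the 6 libraries alone, limma called 62 genes, 80.6% of them upward. Of these only 7 were protein-coding, with 2 risen and 5 fallen, and 2 were long non-coding, with 1 risen and 1 fallen. Omitting mock oct replicate 3 left 370 calls over all genes and 7 among long non-coding genes, and omitting mock oct replicate 1 left 666 and 21. Without hnRNPC siRNA_2 replicate 3 there were 666 and 27 calls, and without siRNA_3 replicate 1 there were 711 and 29. A correction for GC content gave 1462 calls over all genes.

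The 234 risen protein-coding genes had a median GC content of 51.1%, against 47.6% over all protein-coding genes tested, and a median of 6 exons, against 8. Their median span on the genome was 27772 bp, against 33430 bp. The 664 fallen genes went the other way on these measures, with 43.8% GC, 12 exons and 56629 bp. The longest transcript of 32.5% of the risen genes, 40.2% of the fallen genes and 35.8% of all protein-coding genes held a run of at least 9 uridines. The median lengths of these transcripts were 3282, 4180.5 and 3711.5 bp, in the same order. The part of length and GC content in these shares was not tested, and runs in introns were not counted. These are descriptions of the called genes, and across protein-coding genes the fold change ranked with GC content at 0.229.

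ID1 led the protein-coding genes that rose. It encodes an inhibitor of basic helix-loop-helix transcription factors and is a direct target of BMP receptors through SMAD proteins. Its level was 154 and 221 scaled TPM with siRNA_2 and 96.9 and 93.1 with siRNA_3, against 55.9 and 57.9 in mock. Every hnRNPC library lay above both mock libraries, and the siRNA_2 libraries were the higher ones. The log2 fold change was 1.20 (SE 0.13, limma adjusted p = 8.42e-05), or 1.68 with siRNA_2 and 0.73 with siRNA_3. In the other 6 mock libraries of the series ID1 ranged from 44 to 59.7, and in the hnRNPM siRNA_1 libraries it stood at 68.3 and 65.5.

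The 3 other ID genes rose as well. ID2 had 7.69, 9.36, 6.34 and 4.73 scaled TPM with siRNA_2 replicates 1 and 3 and siRNA_3 replicates 1 and 3, against 2.93 and 2.94 in mock (log2 fold change 1.00, SE 0.12, limma adjusted p = 0.000226). ID3 was weakly expressed, at 2.1, 3.26, 2.12 and 1.63 against 1.05 and 0.592 in mock (0.84, adjusted p = 0.00538). For ID4 the values were 4.62, 4.64, 7.66 and 5.71 against 3.85 and 3.55 in mock (0.48, adjusted p = 0.0137). The ID1 and ID2 calls held under every alternative tried; that of ID3 did not survive the omission of mock oct replicate 3 (adjusted p = 0.0986), and that of ID4 without either mock library (largest adjusted p 0.12). ID2 has an antisense partner, ID2-AS1, and the use of strand in the authors' counting is not given in the sources used here, so those reads cannot be told apart.

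Over protein-coding genes 2.08% rose and 5.89% fell, with a median of -0.03. Of 35 tested BMP and TGF-beta genes, 8 rose and 3 fell, with a list median of 0.03. Beside the ID genes these were SMAD6, the inhibitory SMAD of the BMP branch, TGFBR2, a receptor for TGF-beta, CYR61, a matricellular protein, and BMP2, a ligand. SMAD6 had 2.92, 3.22, 2.11 and 1.94 scaled TPM in the hnRNPC libraries, against 1.47 and 1.41 in mock (log2 fold change 0.52, limma adjusted p = 0.00316). TGFBR2 had 12.3, 13.9, 11.6 and 10.4 against 9.14 and 8.07 in mock (0.44, adjusted p = 0.00134), and both calls held without each library in turn. CYR61 (0.61) and BMP2 (0.33) rose by calls that were lost in 4 and 6 of the 6 leave-one-out fits and against all 8 mock libraries. CYR61 had 0.943 and 0.765 in mock oct, against 1.19 to 1.95 in the other 6 mock libraries. BMP2 had 0.912 and 0.892 in mock oct, against 1.16 to 1.55 in the other 6, and 1.14 and 0.974 with siRNA_2. The fallen members were PMEPA1, a TGF-beta target (-0.47), BAMBI, a decoy receptor (-0.32), and SMAD4, the SMAD shared by both branches (-0.24). The hnRNPM siRNA_1 libraries had 6.56 and 6.89 scaled TPM of BAMBI, against hnRNPC and mock means of 6.85 and 8.79. PMEPA1 fell with siRNA_2, at 3.1 and 3.14 scaled TPM, and stood at 6.28 and 5.89 with siRNA_3, against 7.64 and 5.46 in mock. SMAD7, the inhibitory SMAD of the TGF-beta branch, was not called (0.07). Over the leave-one-out fits the list had 4 to 7 risen and 1 to 4 fallen members; omitting mock oct replicate 3 gave the lowest counts, 4 and 1. With the values as deposited it had 3 and 0 and a median of -0.07, and with the 6 libraries alone 2 and 0. Against all 8 mock libraries it had 6 and 4 and a median of 0.006, where 923 of 11270 protein-coding genes rose and 1830 fell. All but 3 of these 11 genes (ID1, ID2 and ID3) were named after their values were seen.

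HES1, a repressor that acts downstream of Notch, was also among the risen genes. It had 16.2, 17.8, 16.4 and 11.6 scaled TPM in the hnRNPC libraries, against 9.33 and 7.55 in mock (log2 fold change 0.80, limma adjusted p = 0.00575). Its level in the other 6 mock libraries reached 17.6, and omitting mock oct replicate 3 ended its call (adjusted p = 0.0956).

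DUSP6 and SPRY2, negative feedback genes of the ERK pathway, rose. DUSP6, a phosphatase of ERK whose transcription follows ERK activity, had 5.6, 4.66, 7.24 and 4.98 scaled TPM in the hnRNPC libraries, against 2.37 and 2.45 in mock (log2 fold change 0.94, SE 0.13, limma adjusted p = 0.000744). SPRY2, an inhibitor of receptor signalling to Ras, had 6.91, 7.88, 9.06 and 8.35 against 5.04 and 4.27 in mock (0.68, adjusted p = 0.000533). The groups of both genes were separate, and both calls held without each library in turn. ETV4 (0.35) and ETV5 (0.21), transcription factors induced by ERK, rose less and lost their calls in 3 and 5 of the leave-one-out fits; ETV4 was named after its values were seen. The list of AP-1 and immediate early genes that holds them had 27 tested members, of which 4 rose and 0 fell; 24 had a positive log2 fold change, with a median of 0.23. Over protein-coding genes 2.08% rose and 4978 of 11270 had a positive change, with a median of -0.03. The positive count was 18 of 27 with the values as deposited and 24 with quantile or protein-coding scaling. FOS (2.34, limma adjusted p = 0.0564) and EGR1 (1.72, adjusted p = 0.131) had the 2 highest estimates of the list and did not pass the test. FOS had 27.5 and 21.1 scaled TPM in replicate 1 and 3.45 and 3.19 in replicate 3 of the hnRNPC siRNAs, against 1.79 and 0.511 in mock replicates 1 and 3, so replicate 1 was high in each group. With the 6 libraries alone 0 members of the list were called. The count of risen members was 2 without mock oct replicate 3 or siRNA_3 replicate 1, and 8 without siRNA_3 replicate 3.

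**Figure D2:**
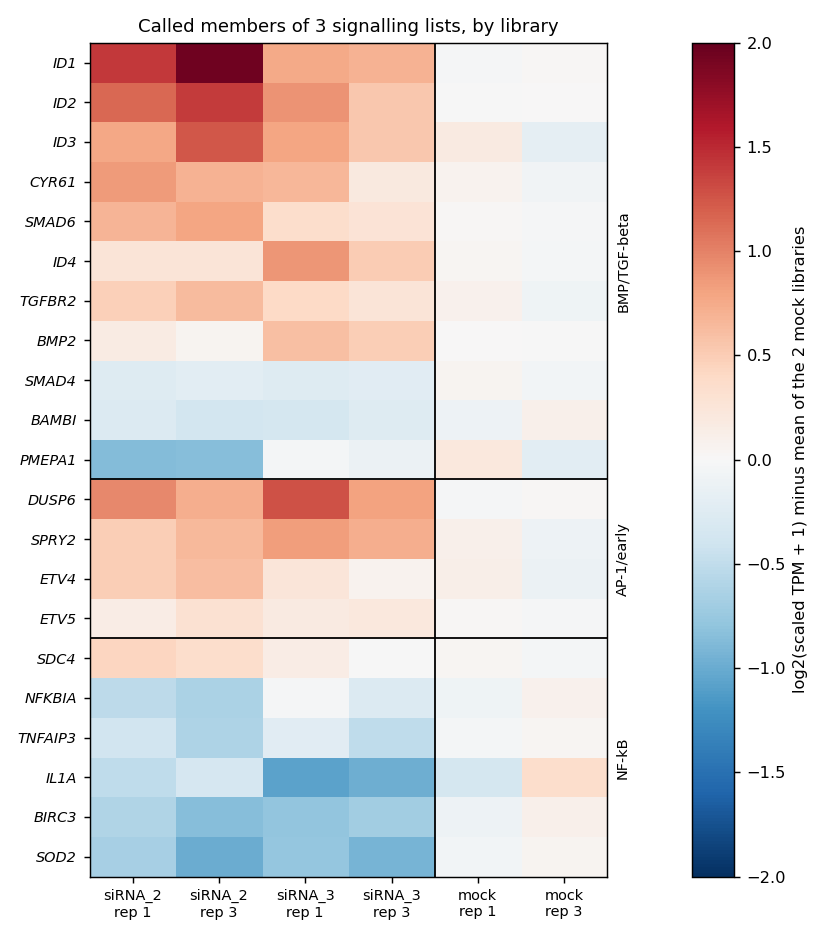
Difference of log2(scaled TPM + 1) from the mean of both mock libraries (colour, log2 units) for the called members of the BMP and TGF-beta, AP-1 and NF-kB lists (rows), in the 4 hnRNPC libraries and the 2 mock libraries (columns, hnRNPC on the left). ID1 and ID2 are above mock in all 4 hnRNPC libraries with the larger values for siRNA_2, and SOD2 and BIRC3 are below mock in all 4.

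SOD2, the mitochondrial superoxide dismutase and a target of NF-kB, fell. It had 45.8 and 36.6 scaled TPM with siRNA_2 and 42.4 and 38.2 with siRNA_3, against 70.9 and 76 in mock. The groups were separate, and the log2 fold change was -0.84 (SE 0.13, limma adjusted p = 0.00187), with -0.83 and -0.85 for the siRNAs. The hnRNPM siRNA_1 libraries of the same set had 69.1 and 79.4. SOD2 varied between the mock sets: the other 6 mock libraries ranged from 22 to 75.7, and against all 8 mock libraries the change was -0.36 (adjusted p = 0.393). With the 6 libraries alone the adjusted p was 0.0548. WTAP, which overlaps SOD2 on the opposite strand, was not called (-0.30, adjusted p = 0.0750).

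Of 39 tested NF-kB targets and feedback genes, 5 fell and 1 rose, 27 had a negative log2 fold change, and the list median was -0.13. Over protein-coding genes 5.89% fell, 2.08% rose and 6292 of 11270 had a negative change, with a median of -0.03. The fallen members beside SOD2 were BIRC3, an inhibitor of apoptosis, IL1A, a cytokine, TNFAIP3, an enzyme that edits ubiquitin and shuts the pathway down, and NFKBIA, the inhibitor that holds NF-kB in the cytoplasm. BIRC3 had 3.03, 2.38, 2.51 and 2.76 scaled TPM in the hnRNPC libraries, against 4.66 and 5.57 in mock (-0.74, limma adjusted p = 0.00395). TNFAIP3 had 1.48, 1.1, 1.75 and 1.28 against 2.13 and 2.33 in mock (-0.43, adjusted p = 0.0217). All 4 hnRNPC values were below both mock values for these 2 genes. IL1A (-0.72) and NFKBIA (-0.37) overlapped with mock, and the NFKBIA change was -0.58 with siRNA_2 and -0.15 with siRNA_3. SDC4, a proteoglycan, rose (0.23). IL8 (-0.94, limma adjusted p = 0.0699) and CXCL1 (-0.66, adjusted p = 0.248) did not pass. Each of these calls except that of SDC4 was lost against all 8 mock libraries, whose BIRC3 values reached down to 1.15 and IL1A values to 7.18. Only SOD2 among the 6 called members kept its call in all 6 leave-one-out fits, and the number of fallen members was 1 without mock oct replicate 3 and 2 without siRNA_2 replicate 3 or siRNA_3 replicate 3. With the hnRNPM siRNA_1 libraries as control, 0 members rose and 1 fell, against 493 and 654 of 11270 protein-coding genes. SOD2 kept its call there, and BIRC3, IL1A, TNFAIP3, NFKBIA and SDC4 lost theirs. TNFAIP3, NFKBIA and SDC4 were named after their values were seen.

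The promoters of 3 fallen NF-kB genes are shown because the pathway is defined by sites of this kind; each is the 250 bases before the annotated start (RefSeq, GRCh38.p14), read 5′ to 3′ on the gene's strand, with matches on either strand to a kB-like motif (GGG, any 4 bases, TCC) in capitals. NFKBIA lies at chr14:35404750-35404999 on the minus strand, TNFAIP3 at chr6:137867009-137867258 and BIRC3 at chr11:102317234-102317483, both on the plus strand.
NFKBIA: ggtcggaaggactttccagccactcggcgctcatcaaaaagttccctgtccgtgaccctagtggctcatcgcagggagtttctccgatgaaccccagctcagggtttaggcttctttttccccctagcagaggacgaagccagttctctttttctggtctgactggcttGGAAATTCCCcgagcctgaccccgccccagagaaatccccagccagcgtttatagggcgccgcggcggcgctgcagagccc
TNFAIP3: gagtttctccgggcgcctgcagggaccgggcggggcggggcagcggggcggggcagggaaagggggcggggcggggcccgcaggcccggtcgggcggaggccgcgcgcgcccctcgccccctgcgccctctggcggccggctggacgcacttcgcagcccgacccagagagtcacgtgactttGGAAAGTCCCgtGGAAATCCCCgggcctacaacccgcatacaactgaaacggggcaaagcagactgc
BIRC3: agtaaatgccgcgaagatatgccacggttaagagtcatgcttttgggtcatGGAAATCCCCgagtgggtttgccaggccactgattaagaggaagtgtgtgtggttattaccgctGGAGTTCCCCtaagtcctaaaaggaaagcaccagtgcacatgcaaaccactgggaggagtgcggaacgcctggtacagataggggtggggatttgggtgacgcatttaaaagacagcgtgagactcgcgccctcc
These windows held 1, 2 and 2 matches. The motif was present in 19.9% of the 35116 promoter windows of the same length. It was present in 4 of the 6 called members of the list and in 24 of the 33 tested members with a window. For this list and the next, a member with several windows counted as a match when any of them held the motif. These counts and the shares per window are therefore unlike measures. For the BMP and TGF-beta list, GGCGCC (in 16.4% of all windows) was present in 3 of the 9 called members with a window and CAGACA (13.6%) in 1 of them; ID1, ID2 and ID3 held neither. A match is a description of the letters and not a bound site.

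Among the remaining risen protein-coding genes with the largest smaller-siRNA effect, CHST2, a sulfotransferase of glycans, had 32.6, 35.8, 31.1 and 23.3 scaled TPM in the hnRNPC libraries, against 15.3 and 19.4 in mock (log2 fold change 0.78, limma adjusted p = 0.000403). RCC1, the exchange factor of the GTPase Ran, had 17.5, 19.2, 19.5 and 22.4 against 13.2 and 10.8 in mock (0.67, adjusted p = 0.000196). DDX39B, an RNA helicase of splicing and export that binds U2AF2, had 21, 24, 17.7 and 19.5 against 13.2 and 13.5 in mock (0.58, adjusted p = 0.00188). These 3 calls held without each library in turn. RCC1 shares its locus with the snoRNA host SNHG3, which was not called (0.24, adjusted p = 0.518), and DDX39B holds SNORD84 and SNORD117, so reads may be split between them. LRRC37A3, a member of a duplicated family, rose by 0.62, and its assignment among copies is uncertain. NT5E, the ecto-nucleotidase CD73 (0.75), TMEM160 (0.71) and the histone genes HIST1H4J (1.00) and HIST2H2BE (0.58) rose with calls that were lost in 2 to 5 of the 6 leave-one-out fits; histone copies share sequence and are uncertain.

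GSPT1, UGGT2, WRN and PRMT3 fell with both siRNAs. GSPT1, the release factor that ends translation, had 16.5, 17.1, 18.1 and 18.2 scaled TPM in the hnRNPC libraries, against 28.8 and 31.2 in mock (log2 fold change -0.75, SE 0.07, limma adjusted p = 4.04e-05). It kept its call under every alternative tried. UGGT2, a glucosyltransferase of the glycoprotein folding check, had 5.29, 4.68, 4.67 and 5.58 against 8.26 and 9.76 in mock (-0.72, adjusted p = 5.91e-05). WRN, the helicase lost in Werner syndrome, had 3.86, 4.41, 4.18 and 4.79 against 6.99 and 9.27 in mock (-0.77, adjusted p = 0.000216). PRMT3, an arginine methyltransferase of the ribosome, had 12.2, 11.6, 12.6 and 11.6 against 17.5 and 22.4 in mock (-0.67, adjusted p = 0.000224). In all 4 genes the groups were separate, both siRNAs gave changes between -0.66 and -0.82, and the calls held without each library in turn.

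IL32, a cytokine gene, fell furthest after HNRNPC by the fitted mean among the named protein-coding genes. It had 3.39 and 2.97 scaled TPM with siRNA_2 and 5.36 and 5.67 with siRNA_3, against 9.49 and 9.81 in mock (log2 fold change -1.03, limma adjusted p = 0.0121), and its call was lost without either mock library. EIF3C, a subunit of the translation initiation factor eIF3, had 51.9, 60.3, 49.3 and 40.6 against 107 and 82.2 in mock (-0.89, adjusted p = 0.00105). Its near-identical copy EIF3CL was not called (-0.86, adjusted p = 0.0506), and reads of the pair cannot be assigned with certainty. MFSD1, a lysosomal transporter (-0.69), PDZK1IP1, a membrane protein of epithelia (-0.77), and CDH13, a cadherin anchored by lipid (-0.82), also fell; the call of CDH13 was lost in 4 of the 6 leave-one-out fits and that of PDZK1IP1 without mock oct replicate 3. ATIC, an enzyme of purine synthesis (-0.73), rested on 1 mock library: it had 6.08, 5.78, 6.1 and 5.47 in the hnRNPC libraries, against 15.5 and 6.88 in mock, and the change was -0.20 without the first of these (adjusted p = 0.399).

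**Figure D3:**
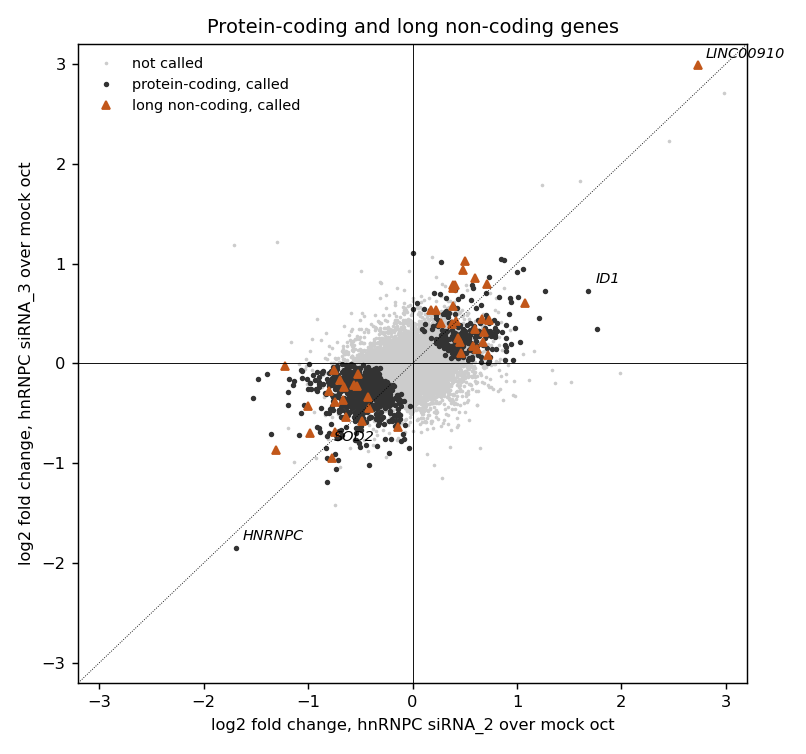
Log2 fold change over mock oct with hnRNPC siRNA_2 (horizontal) and siRNA_3 (vertical) for each protein-coding and long non-coding gene tested; grey points were not called, black points are called protein-coding genes, orange triangles called long non-coding genes, and the dotted line marks equal change. HNRNPC and LINC00910 lie near the line at opposite ends, and ID1 lies below it, at 1.68 and 0.73.

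LINC00910 had the largest change of the called long non-coding genes. It had 19.1 and 12.5 scaled TPM with siRNA_2 and 16.5 and 21.1 with siRNA_3, against 1.17 and 1.82 in mock (log2 fold change 2.86, SE 0.23, limma adjusted p = 1.17e-05). All 4 hnRNPC libraries were far above both mock libraries, the hnRNPM siRNA_1 libraries (1.87 and 2.2) and the other 6 mock libraries (0.865 to 2.9), and the call held under every alternative tried. The gene contains RNU2-4P, a copy of the U2 small nuclear RNA on the same strand, which has no value of its own here. Of 19 tested RNU2- copies, 2 rose and 1 fell. The risen ones were RNU2-46P, with 4.75, 6.44, 14.3 and 12.6 against 0.472 and 0.807 in mock (2.57), and RNU2-13P, with 5.48, 3.67, 8.81 and 8.49 against 0.479 and 0.712 (2.19). RNU2-2P was not called (0.28, limma adjusted p = 0.822). Whether the LINC00910 value comes from the long RNA or from the U2 copy cannot be told apart at the gene level.

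The other risen long non-coding genes named here, a part of those without clone-based symbols, moved by 0.34 to 0.59. FGD5-AS1, a broadly expressed antisense RNA, had 47.6, 47.4, 52.2 and 51.5 scaled TPM in the hnRNPC libraries, against 38.8 and 39.4 in mock (log2 fold change 0.34, limma adjusted p = 0.00412), and its call held without each library in turn. HOTAIRM1, a transcript of the HOXA cluster, had 9.65, 10.6, 9.11 and 8.49 against 7 and 7.46 in mock (0.34, adjusted p = 0.0151), and its call was lost when either mock library was omitted. GAS5-AS1 (0.42), LINC00662 (0.38) and FAM211A-AS1 (0.59) rose with calls lost in 2, 4 and 5 of the leave-one-out fits. GAS5-AS1 lies opposite GAS5, which stood at 2251 to 3299 in the hnRNPC libraries, against 2667 and 2686 in mock, and FAM211A-AS1 holds SNORD49A, SNORD49B and SNORD65, so the assignment of their reads is uncertain. HCP5, an RNA of the MHC region that overlaps MICA, fell: it had 4.27, 2.39, 4.88 and 3.98 against 6.44 and 5.73 in mock (-0.56, adjusted p = 0.0259), a call lost in 4 of the fits. JPX, a transcript of the X inactivation centre, had 10.2, 8.94, 12.3 and 13.8 against 12.8 and 15.7 in mock (-0.32, limma adjusted p = 0.0448). Its groups overlapped, the change was -0.52 with siRNA_2 and -0.11 with siRNA_3, and its call was kept in 3 of the 6 fits. Of the risen and fallen long non-coding genes, 19 of 26 and 17 of 20 have clone-based symbols. Of 26 tested abundant long non-coding RNAs, 1 rose and 3 fell. The fallen count was 0 without siRNA_2 replicate 3, without mock oct replicate 3 or with no filter on low values, and 1 without siRNA_3 replicate 1, siRNA_3 replicate 3 or mock oct replicate 1; omitting either mock library left 0 risen members. NEAT1 and MALAT1 were not called (0.23 and 0.14). Of 21 tested members of the list of non-coding snoRNA hosts, 0 were called by limma and 2 had an unadjusted p under 0.05. FAM211A-AS1, called above, was not among these members.

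Other pathways were read against the shares of 2.08% risen and 5.89% fallen over protein-coding genes. In the hnRNP family, 33 genes were tested, 0 rose and 2 fell, HNRNPC and its copy HNRNPCL1. RALY, a close relative of hnRNPC, was not called (0.14, limma adjusted p = 0.217). Among 20 factors of 3' splice site recognition, SF3A3, a subunit of SF3a in the U2 particle, fell, with 3.79 and 3.8 scaled TPM for siRNA_2 and 6.75 and 6.73 for siRNA_3, against 8.12 and 7.74 in mock (log2 fold change -0.55, limma adjusted p = 4.04e-05). SF3B3 rose (0.24), and U2AF1 and U2AF2 were not called (-0.00 and 0.09). Of 29 factors of nuclear decay and of binding to U-rich or double-stranded RNA, STAU1 (-0.31) and STAU2 (-0.25) fell and SMG9 rose (0.32). The STAU1 and SF3A3 calls held without each library in turn; those of STAU2 and SF3B3 were lost in 3 of the leave-one-out fits and that of SMG9 without either mock library.

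Of 55 interferon-stimulated genes tested, TAP2 rose (0.30) and 4 fell, counts near the shares over protein-coding genes; the fallen ones included HERC6 (-0.42), PARP12 (-0.28) and SP100 (-0.27). IFIT1 (0.25), ISG15 (-0.03) and MX1 (-0.09) were not called, with limma adjusted p of 0.395, 0.955 and 0.750. The median of the list was -0.06. With siRNA_2 alone 7 members rose and 6 fell, against 718 and 1190 of 11270 protein-coding genes in the same fit. With all 8 mock libraries 1 rose and 11 fell, against 923 and 1830 of the 11270. The omission of mock oct replicate 3 left 0 calls, and that of siRNA_2 replicate 3, siRNA_3 replicate 3 or mock oct replicate 1 left 1 risen and 2 fallen members. SP100 was named after its values were seen.

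Of 34 hypoxia and glycolysis genes, 5 fell and 0 rose: BNIP3, a receptor for mitophagy (-0.51), EGLN1, the oxygen sensor that marks HIF for decay (-0.49), HK2 (-0.45), P4HA1 (-0.40) and PFKP (-0.30). EGLN1 had 9.67, 9.16, 11.1 and 11.9 scaled TPM in the hnRNPC libraries, against 14.1 and 16 in mock, and kept its call without each library in turn (limma adjusted p = 0.000814). HIF1A itself was not called (-0.30, limma adjusted p = 0.130). Omitting mock oct replicate 3 left 1 fallen member, and omitting siRNA_2 replicate 3 or mock oct replicate 1 left 2. Of 37 unfolded protein and ATF4 stress genes, 0 rose and 4 fell, XBP1 (-0.35), HSP90B1 (-0.42), DNAJB9 (-0.30) and PSPH (-0.27). ATF4 and DDIT3 were not called (0.04 and 0.05), and the number of fallen members was 0 without siRNA_2 replicate 3. The HSP90B1 call was lost in all 6 leave-one-out fits. HSP90B1 stood at 131 and 129 scaled TPM in the hnRNPM siRNA_1 libraries, against hnRNPC and mock means of 120 and 162. P4HA1, PFKP and PSPH were named after their values were seen. Of 28 NRF2 genes, CAT (0.44) and KEAP1 (0.24) rose and ME1 fell (-0.35). KEAP1 and ME1 each lost the call in 5 of the 6 leave-one-out fits. The list had 0 calls without mock oct replicate 1, 1 risen and 0 fallen members when siRNA_2 replicate 3, siRNA_3 replicate 1 or mock oct replicate 3 was omitted, and 1 and 1 without siRNA_2 replicate 1.

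Among 29 tested keratins, junction and mesenchymal genes, 4 fell and 0 rose. KRT7 had 42.8, 44.9, 36.7 and 44.8 scaled TPM in the hnRNPC libraries, against 54.7 and 75.5 in mock (log2 fold change -0.60, limma adjusted p = 0.0155). The tight junction genes TJP1 (-0.41) and OCLN (-0.40) and the keratin KRT19 (-0.42) fell too, the OCLN call holding without each library in turn. The TJP1 and KRT19 calls were kept in 2 and 1 of the 6 leave-one-out fits. OCLN changed by -0.17 with siRNA_2 and -0.63 with siRNA_3, and KRT19, whose groups overlapped, by -0.09 and -0.76. The count of fallen members was 1 when siRNA_3 replicate 1 or mock oct replicate 3 was omitted, and 2 when mock oct replicate 1 was. KRT7 and KRT19 were also the 2 fallen genes of 9 tested identity markers. CDH1 and VIM were not called (-0.01 and -0.15). Of 41 G1/S genes, CDT1 (0.45) and CDKN1A (0.49) rose and MCM3 (-0.40), MCM4 (-0.30) and RFC2 (-0.31) fell, the last 2 named after their values were seen. The CDKN1A call was lost in all 6 leave-one-out fits. In the hnRNPM siRNA_1 libraries CDKN1A stood at 5.91 and 6.46 scaled TPM, against hnRNPC and mock means of 6.23 and 4.12. The list had 0 calls without mock oct replicate 1, 0 risen and 1 fallen members when mock oct replicate 3 was omitted, 0 and 3 without siRNA_3 replicate 1, and 1 and 0 without siRNA_2 replicate 3 or siRNA_3 replicate 3. Of 39 mitotic genes 0 were called by limma and 0 had an unadjusted p under 0.05, with medians of 0.17 for siRNA_2 and -0.24 for siRNA_3. These medians turned with single libraries: that of siRNA_2 was 0.58 without its replicate 1 and -0.30 without its replicate 3, and that of siRNA_3 was 0.14 without its replicate 1 and -0.61 without its replicate 3. For siRNA_2 and siRNA_3 they were 0.43 and 0.10 without mock oct replicate 3, and -0.16 and -0.53 when mock oct replicate 1 was omitted, so no order of the siRNAs against mock is read from them. Of 38 homologous recombination and Fanconi genes, MRE11A (-0.44), PALB2 (-0.29) and ATM (-0.28) fell and 0 rose. In the hnRNPM siRNA_1 libraries MRE11A stood at 2.47 and 2.18 scaled TPM, against hnRNPC and mock means of 2.35 and 3.53. ATM had 14.3 and 13.2 there, against means of 15.7 and 19, and PALB2 6.19 and 7.24, against 5.59 and 7.07. All 3 calls were lost with those libraries as control. PALB2 and ATM lost their calls in 5 and 4 of the 6 leave-one-out fits; the list had 0 fallen members without mock oct replicate 3, and 1 without siRNA_2 replicate 3, siRNA_3 replicate 1 or mock oct replicate 1. Of 12 messages that earlier work links to hnRNPC, 0 were called by limma and 4 had an unadjusted p under 0.05. Of 424 ZNF genes, 9 rose and 14 fell. The genes given above as not called were picked from their lists after their values were seen.

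**Figure D4:**
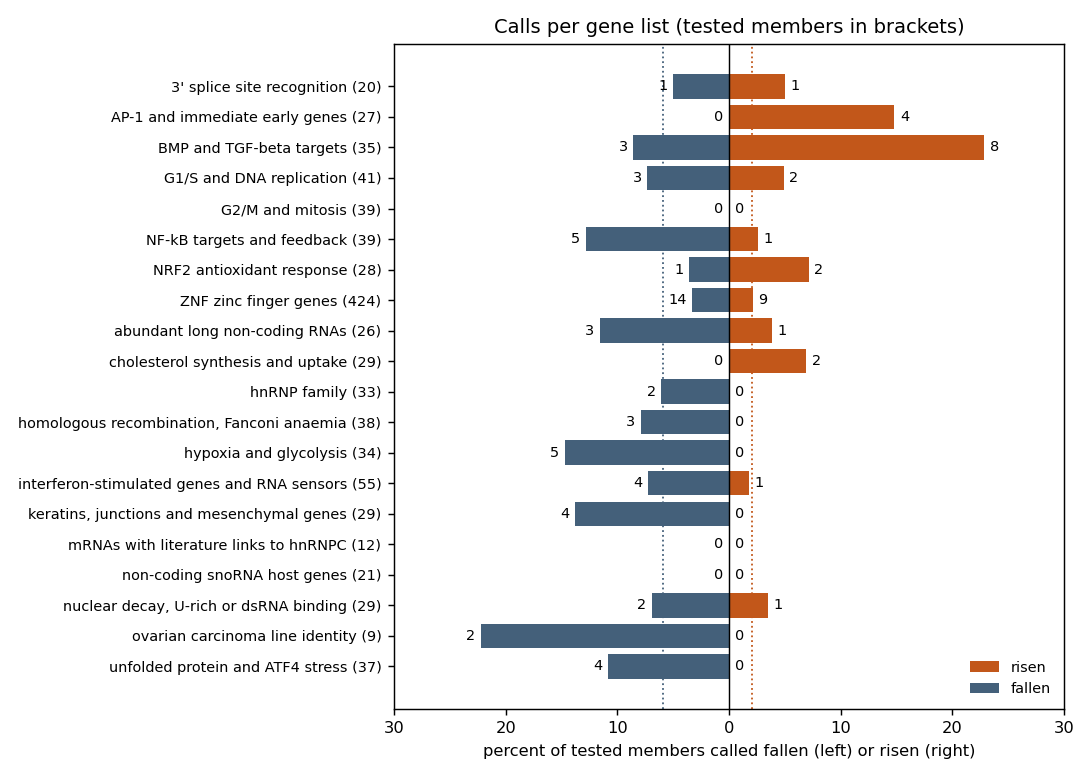
Percent of the tested members of each list called fallen (left) or risen (right) after hnRNPC depletion, with the number of genes at each bar's end; dotted lines mark the shares over all protein-coding genes (5.89% fallen, 2.08% risen). The BMP and TGF-beta list has the longest bar to the right, with 8 of 35, and the mitotic, snoRNA host and literature lists have 0 calls.

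The siRNAs differed from each other in 1880 of the 16994 genes (11.1%), in 1616 protein-coding genes (14.3%) and in 116 long non-coding genes (7.52%), by the contrast of siRNA_2 with siRNA_3, from which the mock libraries cancel. Of the 234 risen and 664 fallen protein-coding genes, 81 and 217 also differed in this contrast. Of the 1880, 957 were higher and 923 lower with siRNA_2; as deposited the split was 497 and 44, and with a common protein-coding total 684 and 1221. With the 6 libraries alone the count was 6. It was 517 without siRNA_2 replicate 3, 858 without siRNA_3 replicate 3 and 1177 without siRNA_3 replicate 1.

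TM4SF1, a membrane protein of the tetraspanin-like group, had the largest difference upward with siRNA_2 among genes with a mean of at least 5 scaled TPM. It had 41.7 and 74 scaled TPM with siRNA_2, against 13.8 and 11.1 with siRNA_3, and 12.5 and 14.1 in mock (siRNA_2 minus siRNA_3 2.08 on the log2 scale, limma adjusted p = 5.43e-05). HEY1, a transcriptional repressor downstream of Notch and BMP, had 7.06 and 10.2 with siRNA_2, against 2.57 and 3.1 with siRNA_3 (1.31, adjusted p = 4.68e-05). SDC1, a cell surface proteoglycan, had 47.9 and 53.5 against 23.2 and 17.5 (1.29, adjusted p = 5.55e-05). In these 3 genes both siRNA_3 libraries lay below the higher mock library.

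Lower with siRNA_2 were SPARC, FN1 and PINK1. SPARC, a matricellular protein, had 4.34 and 8.97 scaled TPM with siRNA_2, against 17 and 20.2 with siRNA_3 and 8.54 and 10.1 in mock (-1.42, limma adjusted p = 0.00165). FN1, the matrix protein fibronectin, had 8.85 and 7.32 with siRNA_2, against 23.8 and 20.6 with siRNA_3 and 18.4 and 13.9 in mock (-1.35, adjusted p = 0.000188). PINK1, the kinase that starts mitophagy, had 5.46 and 6.74 with siRNA_2, against 18.1 and 15.4 with siRNA_3 and 18 and 19.5 in mock (-1.32, adjusted p = 1.64e-05). PINK1 counted as a gene that fell with both siRNAs (-0.82), although the change was -1.48 with siRNA_2 and -0.16 with siRNA_3; reads of its antisense partner PINK1-AS cannot be told apart from its own.

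Genes of cholesterol synthesis and uptake had the largest share of members that differed between the siRNAs among the lists: 15 of 29 did, against 11.1% over all genes. Their median log2 fold change was -0.05 with siRNA_2 and 0.32 with siRNA_3; with the values as deposited these were -0.12 and 0.06. Over both siRNAs 2 members rose, HSD17B7, an enzyme of late sterol synthesis (0.57), and SREBF2, the transcription factor of the pathway (0.33), and 0 fell. HSD17B7 had 6.88, 8.32, 9.77 and 9.69 scaled TPM in the hnRNPC libraries, against 5.47 and 5.42 in mock. STARD4, a sterol carrier, had 8.62 and 7.16 with siRNA_2, against 14.7 and 17.1 with siRNA_3 and 10.9 and 12.2 in mock. NPC1, a lysosomal exporter of cholesterol, had 34.7 and 38.6 with siRNA_2, against 20.7 and 19.3 with siRNA_3 and 22.6 and 21.7 in mock, the opposite order; both genes were named after their values were seen. The call of HSD17B7 was lost without mock oct replicate 3, where 0 members were called.

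**Figure D5:**
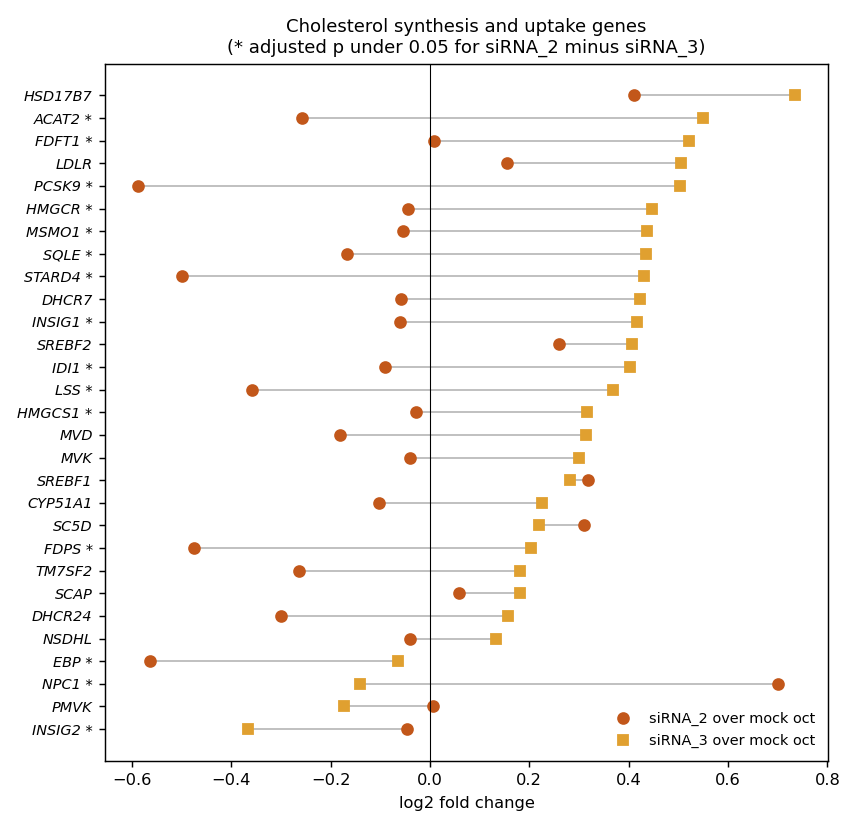
Log2 fold change over mock oct with hnRNPC siRNA_2 (circles) and siRNA_3 (squares) for the 29 tested genes of cholesterol synthesis and uptake (rows); an asterisk marks an adjusted p under 0.05 for the difference between the siRNAs. Most circles lie left of 0 and most squares right of it, with medians of -0.05 and 0.32, and NPC1 runs the other way.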

How the data were processed

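Per the labels' protocols, fragmentation of the ribodepleted RNA took 7 min at 94 °C, and TGIRT copies went through 12 cycles of PCR. The submitters' processing notes name hg19 and these tools, with no order: SAMtools 0.1.19.0, Bowtie2 2.1.0.0, TopHat2 2.0.9, Trimmomatic 0.38 and FastQC 0.10.1. The authors deposited TPM for 57773 genes in 24 libraries, each summing to 1000000; the tool behind the TPM, its use of strand and the depth are not given in the sources used here, so no counting intervals are given.

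Each library was divided by its median-ratio factor (0.664 to 1.41), computed from the 22727 genes with no 0 in any library, and taken to log2 with a pseudocount of 1. limma 3.58.1 (R 4.3.3) fitted 12 groups of 2 libraries, with 12 residual and 3.04 prior degrees of freedom and a mean-variance trend, so the spread is shared with groups outside the comparison. Of 276 library pairs, 0 were identical. Gene types, lengths and GC content came from GENCODE by gene identifier (16260 of 16994 matched, another build than the table's); promoters are RefSeq's. The method was also run on simulated data with independent noise per gene and library. These had no GC trend and no link between same-numbered libraries, so the run does not check the calls against either.

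The genes and lists were chosen with earlier results of these data known. Named genes are HNRNPC, SOD2 and ID1; the 12 risen and 12 fallen protein-coding genes (mean of at least 5 scaled TPM) and 6 long non-coding genes per direction (at least 2) with the largest effect of the weaker siRNA and no clone-based symbol; up to 3 called members per list; and up to 3 genes per direction that differed between siRNAs; a few genes are not reported here. Alternatives were other scalings, another pseudocount, no filter or 5 TPM, the 6 libraries alone, a replicate block, GC correction, all 8 mock libraries, each siRNA alone and leaving out each library; hnRNPM siRNA_1 as control was added after seeing the data.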

Additional observations from a re-analysis of the deposited data

Results flagged for a closer look

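For the 25 genes given here the effect of hnRNPC siRNA_2 differed from that of siRNA_3 in the same limma fit; each value below is the log2 fold change with siRNA_2 minus that with siRNA_3, and each had a limma adjusted p under 0.05. TM4SF1, HEY1, SDC1, SPARC, FN1 and PINK1 were picked for this difference, which was 2.08, 1.31, 1.29, -1.42, -1.35 and -1.32.

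Among genes picked for other reasons the change was more positive with siRNA_2 for ID1 (0.952), KRT19 (0.669), CAT (0.557), ID2 (0.55), SMG9 (0.502), OCLN (0.46), SMAD6 (0.425), ETV4 (0.406), SDC4 (0.325) and KEAP1 (0.27). It was more negative with siRNA_2 for PMEPA1 (-0.78), SF3A3 (-0.69), BMP2 (-0.438), ID4 (-0.437), NFKBIA (-0.433), JPX (-0.414), ATM (-0.358), HERC6 (-0.334) and EGLN1 (-0.265). HNRNPC itself differed by 0.15 between the siRNAs (limma adjusted p = 0.492).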

How the results depend on the processing

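The fall of HNRNPC kept its direction and call under every alternative, between -1.58 and -1.96. The counts moved more. In the order all genes, protein-coding, long non-coding and siRNA difference (1096, 898, 46 and 1880 as reported), the values as deposited gave 287, 198, 7 and 541, and the 6 libraries alone 62, 7, 2 and 6. The replicate block gave 2267, 1812, 88 and 3273, and the replicate block with GC correction 2736, 2262, 102 and 4058; replicate numbers 1 and 3 are only shared labels, and deviations of same-numbered libraries correlated at 0.355, 0.273 and 0.285. Under the replicate block the AP-1 list had 9 risen members, and 10 risen and 1 fallen with GC correction, in place of 4 and 0. Over 11270 protein-coding genes 564 rose and 1248 fell under the block, and 895 and 1367 with GC correction. All 8 mock libraries gave 3527, 2753 and 199 calls, siRNA_2 alone 2253, 1908 and 100, and siRNA_3 alone 462, 353 and 26. A 5 TPM filter gave 22 long non-coding calls, and hnRNPM siRNA_1 as control, chosen after seeing the data, 78. Leaving out each library gave 370 to 1200, 292 to 1017, 7 to 45 and 517 to 2203.

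Of the 81 named genes called, 25 kept the call in all 6 leave-one-out fits, 73 with GC correction, 68 with all 8 mock libraries, 54 with hnRNPM siRNA_1 as control, 28 as deposited and 6 with the 6 libraries alone. With hnRNPM siRNA_1 as control the estimates of ATM (0.163), BAMBI (0.0228), CDH13 (0.131), CDKN1A (-0.00103) and MRE11A (0.00487) had the opposite sign. None passed the test, with limma adjusted p of 0.229, 0.922, 0.795, 0.999 and 0.987 in that order. The cause was not tested. Depth is unknown, and 2 libraries a group limit the precision.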

Other observations

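Classes of structured RNA outside the protein-coding and long non-coding genes, looked at after their values were seen, differed in their share of risen members. Of 274 genes of the class misc_RNA, 26 rose (9.49%) and 4 fell, and of 285 small nuclear RNA genes and copies, 16 rose (5.61%) and 2 fell, against 2.11% risen over all genes. By family, 6 of 23 RN7SK copies, 7 of 49 RN7SL copies, 10 of 181 RNU6- copies and 2 of 19 RNU2- copies rose, while 2, 0, 1 and 1 fell; of 23 RNU1- copies 1 rose, and of 10 RNU5, 22 SCARNA and 4 VTRNA genes 0 were called. Of 344 snoRNAs, 3 rose (0.872%) and 0 fell, with a median log2 fold change of 0.251, and of 17 scaRNA and 18 rRNA genes 0 were called. Most of these copies share sequence with the parent RNA, so reads may be placed on the wrong copy. The protein-coding share of TPM was 15.1% to 18.8% in the hnRNPC libraries, against 19.1% and 19.3% in mock, and its part in these counts was not tested.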
